A study of Bos taurus with 6 samples.

Results

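The 8 genes described here, EOMES, MIXL1, GSC, GATA4, GATA6, SOX17, FOXA2 and MESP1, encode transcription factors that specify mesoderm and endoderm. They were taken as a named list and matched by Entrez identifier among the 19163 genes of the count table, which holds 7 of them, and by symbol among the 21357 genes of the TPM table, which holds all 8. The RNA came from F7, a bovine embryonic stem cell (bESC) line derived from an in vitro fertilized Holstein Friesian embryo. In the MC-F7 group (labelled 1M) F7 was grown on mouse embryonic fibroblasts (MEFs) treated with mitomycin C, an alkylating agent that halts proliferation, and in the MT-F7 group on MEFs fixed with methanol, which kills them. Each group had 3 libraries, and both groups are described as being at passage 15. Both were kept in the same medium, with fibroblast growth factor and the Wnt inhibitor IWR1, but it was changed daily for MC-F7 and every other day for MT-F7, so feeder and feeding interval cannot be told apart. All libraries came from 1 cell line and from the cells that were still floating after a short plating on gelatin, to which fibroblasts attach. The study's statistics section speaks of technical replicates without naming the RNA-seq libraries, whether these were separate cultures is not given in the sources used here, and the p values measure only the spread between these libraries.

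Mesendoderm is the common precursor of mesoderm and definitive endoderm, and it forms in the primitive streak under Nodal, Wnt and BMP signals. EOMES, MIXL1 and GSC act early in the streak, MESP1 marks the mesoderm that gives rise to the heart, and SOX17, FOXA2, GATA4 and GATA6 act in definitive or primitive endoderm. Pluripotent cells that have not begun to differentiate usually carry little of these transcripts. Some of the factors have other sites of expression as well: EOMES in trophoblast and in cortical progenitors, and FOXA2 in the floor plate of the neural tube.

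The libraries held 21958386 to 24933430 gene counts, and 3 counts, or 0.120 to 0.137 counts per 1000000 (CPM), were taken as the detection floor. This limit covers counting error only. The expression levels of OCT4 (POU5F1), NANOG, LIN28A and SALL4 were above this floor in all 6 libraries, and 7 of the 9 tested pluripotency genes were lower in the MT-F7 cells, with the largest log2 fold changes in DPPA4 (-3.22), ZFP42 (-2.73), NANOG (-2.02) and DNMT3B (-1.20). Of the 13001 genes tested by edgeR's quasi-likelihood test, 23.2% had an adjusted p under 0.05 (Benjamini-Hochberg over all tested genes), 11.9% of them higher and 11.3% lower in the MT-F7 cells as shares of all tested genes. The median log2 fold change of all tested genes was -0.0026. All fold changes are given as MT-F7 relative to MC-F7.

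EOMES and FOXA2 were the members with enough reads for this test, FOXA2 through its MC-F7 libraries, and both were lower in the MT-F7 cells. The remaining 5 members in the count table did not pass the filter on low counts, and MESP1 was measured in the TPM table. GATA4 was at 0 in every library. In the MT-F7 cells MIXL1 was at 0 as well. The plot of CPM by library shows these levels against the detection floor.

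**Figure D1:**
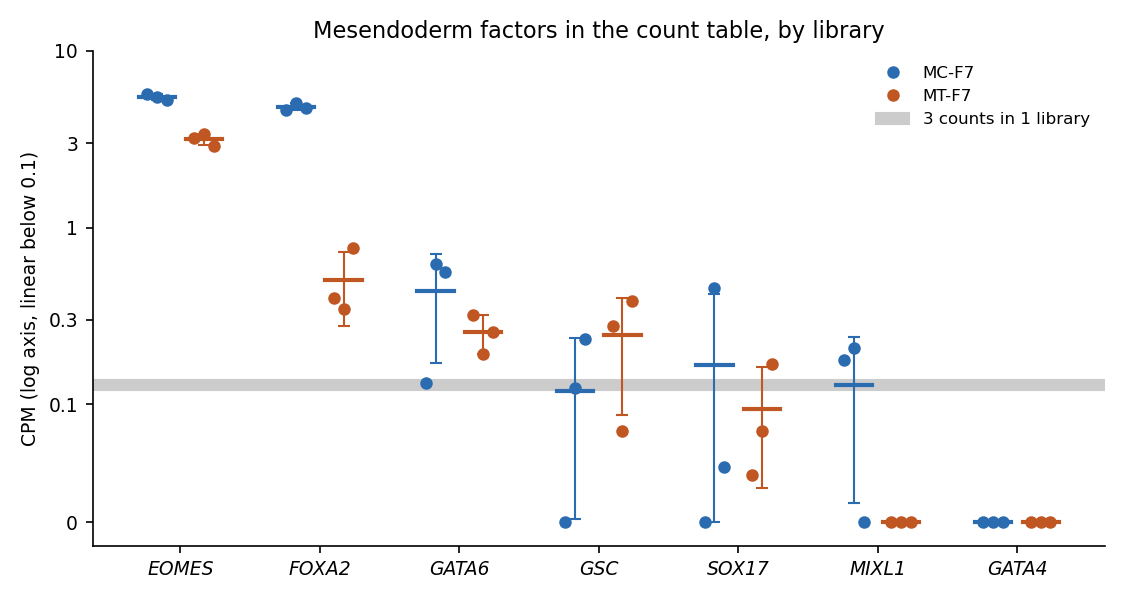
CPM of the 7 mesendoderm factors in the count table (log axis, linear below 0.1), with 1 point per library, thick lines for the group means, error bars for the SD (n = 3, cut at 0) and a grey band for 3 counts in 1 library. The MT-F7 points of EOMES and FOXA2 lie below all MC-F7 points, while the points of the 2 groups overlap for GATA6, GSC and SOX17.

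EOMES (Entrez gene 511947), a T-box factor needed for the delamination of mesoderm and for definitive endoderm, had the most counts of the members in the sum of the 6 libraries. MC-F7 libraries gave 129, 132 and 113 counts, against 81, 87 and 68 for MT-F7. The groups did not overlap, as in 40% of the tested genes (20.1% with MT-F7 below and 19.9% with MT-F7 above). The mean level fell from 5.49 ± 0.211 to 3.16 ± 0.244 CPM (SD, n = 3), that is 1.74-fold. The log2 fold change was -0.80 (standard error 0.223, 95% interval -1.28 to -0.31, adjusted p = 0.021), and 8.88% of the tested genes had a lower fold change. The adjusted p rose above 0.05 when MC-F7 replicate 2 (0.075), MT-F7 replicate 1 (0.065) or MT-F7 replicate 2 (0.052) was left out, although the log2 fold change stayed between -0.84 and -0.74 whichever library was left out. With limma on the TPM values rescaled to 1000000 per library its adjusted p was 0.053.

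FOXA2 (Entrez gene 101906272), a forkhead factor of the anterior streak and definitive endoderm that opens chromatin for later factors, was reduced far more. Its counts were 105, 122 and 102 in the MC-F7 libraries and 10, 9 and 18 in the MT-F7 libraries. All MC-F7 libraries lay far above MT-F7 replicate 3, the highest of its group. In 20.1% of the tested genes all MT-F7 libraries were below all MC-F7 libraries. The mean level fell from 4.82 ± 0.212 to 0.503 ± 0.227 CPM (SD, n = 3), that is 9.58-fold. The log2 fold change was -3.26 (standard error 0.347, 95% interval -4.01 to -2.51, adjusted p = 3.1e-05), and 49 of the 13001 tested genes (0.377%) had a lower one. It passed the threshold whichever library was left out, with log2 fold changes from -3.68 to -3.05. FOXA2 met the filter on low counts through its MC-F7 libraries, and it was not tested when 10 counts were required in every library. In the fit of all genes with at least 1 count, its log2 fold change was -3.25 (adjusted p = 1.6e-06).

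Within a library the ratio of FOXA2 to EOMES counts does not depend on how the libraries are scaled. This ratio was 0.814, 0.924 and 0.903 in the MC-F7 libraries and 0.123, 0.103 and 0.265 in the MT-F7 libraries. The groups did not overlap, and an exact permutation test gave a two-sided p of 0.1, which is the smallest that 3 libraries against 3 can give. FOXA2 therefore fell by more than EOMES in every pairing of libraries. The plot of all tested genes shows both members at modest abundance, since 26.3% of tested genes had a lower mean level than EOMES and 19.3% a lower one than FOXA2.

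**Figure D2:**
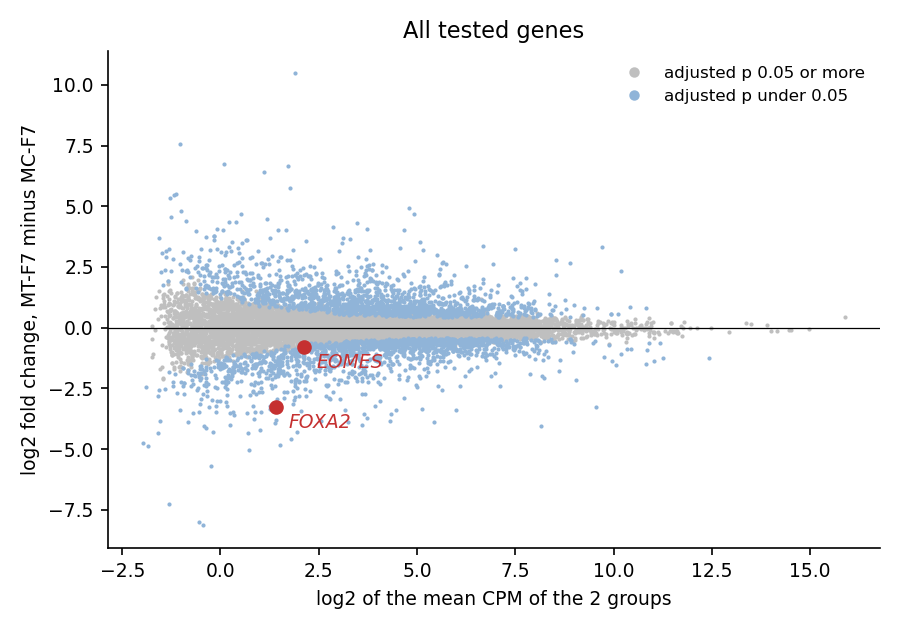
Log2 fold change (MT-F7 minus MC-F7) of the 13001 tested genes against the log2 of their mean CPM, with genes of an adjusted p under 0.05 in blue, the others in grey and the tested members in red. FOXA2 lies at -3.26, near the lower edge at its level, and EOMES at -0.80, close to the grey band.

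MESP1, a basic helix-loop-helix factor of early cardiac mesoderm, was read from the table that the authors call TPM, in which each value is a count divided by gene length and by a factor shared by the libraries. After each library was rescaled to 1000000, MESP1 was at 5.2, 3.89 and 2.57 in the MC-F7 libraries and at 6.79, 7.38 and 7.01 in the MT-F7 libraries. All MT-F7 libraries were above all MC-F7 libraries, as in 19.5% of the 16900 genes of this table with a value above 0 (33.3% did not overlap in either direction). The mean rescaled TPM was 3.89 ± 1.32 for MC-F7 and 7.06 ± 0.301 for MT-F7 (SD, n = 3), a ratio of 1.82. This did not pass the threshold. With limma on log2(rescaled TPM + 1) the log2 fold change was 0.76 (standard error 0.216, 95% interval 0.25 to 1.27, adjusted p = 0.063). On this scale, which understates the change of low genes, 8.41% of the genes were called higher in the MT-F7 cells.

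The spread of MESP1 lay mostly within MC-F7. The share of counts on genes of the mitochondrial genome in these libraries was 16.3%, 19.8% and 28.3%, and the library with the highest share had the lowest MESP1 value. For MT-F7 the share was 23.2%, 18.0% and 27.9%. Its part in the result was not tested. The 6 MESP1 values were whole multiples of 1 step, namely 75, 57 and 36 for MC-F7 against 101, 110 and 104 for MT-F7. Taken as counts in the edgeR fit, an alternative chosen after the data had been seen, these gave a log2 fold change of 0.78 (adjusted p = 0.066). Over all alternatives the adjusted p of MESP1 ran from 0.026 to 0.19, and it was 0.046 without MC-F7 replicate 1.

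GATA6 (Entrez gene 654400), a zinc finger factor of primitive endoderm and cardiac mesoderm, was counted 3, 15 and 12 times in the MC-F7 libraries and 8, 5 and 6 times in the MT-F7 libraries. The MT-F7 values lay inside the MC-F7 range. In the fit of all 16223 genes with at least 1 count, its log2 fold change was -0.77 with a 95% interval of -2.35 to 0.82 (adjusted p = 0.53). No change was detected, and the interval includes both falls and rises. GATA4 (327716), which shares the DNA motif of GATA6 and acts in heart and endoderm, was at 0 counts in all 6 libraries, which allows a level of up to 0.120 to 0.137 CPM.

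SOX17 (Entrez gene 534010), an HMG-box factor of definitive endoderm, was counted 0, 11 and 1 times in the MC-F7 libraries and 1, 2 and 4 times in the MT-F7 libraries. MC-F7 replicate 2 held 11 of its 12 MC-F7 counts, and only that library and MT-F7 replicate 3 were above the floor. The log2 fold change in the fit of all genes with a count was -0.82 (95% interval -3.41 to 1.78, adjusted p = 0.69). GSC (514862), a homeobox repressor of the organizer, had MC-F7 counts of 0, 3 and 5 and MT-F7 counts of 7, 2 and 9, and its log2 fold change was 1.02 (95% interval -1.25 to 3.29, adjusted p = 0.56). Its groups overlapped, and 3 of the 6 libraries were above the floor.

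MIXL1 (Entrez gene 614854), a paired-type homeobox gene of the streak that Nodal signals switch on, had MC-F7 counts of 4, 5 and 0 and MT-F7 counts of 0, 0 and 0. MC-F7 replicate 3 was thus at the MT-F7 level, and the groups touched, whereas 34.9% of all genes with a count did not overlap. The sum of 9 counts in MC-F7 equals the floor of 3 counts in each of 3 libraries, so no fold is given, and its adjusted p in the fit of all genes with a count was 0.13. In that fit 19.2% of the genes were called, and EOMES and FOXA2 were again the members called. The plot of log2 fold changes shows how wide the intervals of the low members were.

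**Figure D3:**
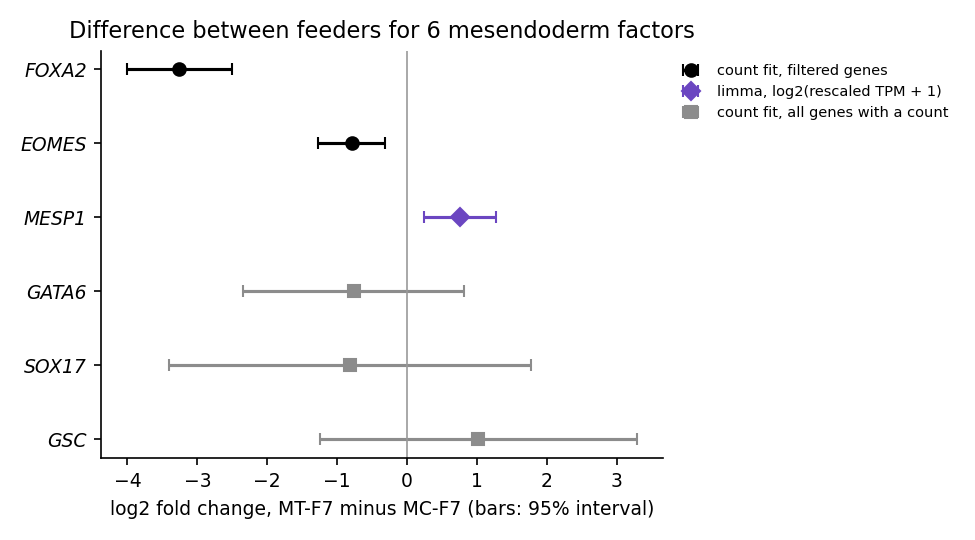
Log2 fold change (MT-F7 minus MC-F7) with its 95% interval for 6 mesendoderm factors, from the edgeR fit of filtered genes (black circles), the edgeR fit of all genes with a count (grey squares) and limma on rescaled TPM (purple diamond). GATA4 and MIXL1 are left out because all their MT-F7 counts were 0, and the intervals of GATA6, SOX17 and GSC span 0.

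Levels of different genes were compared per length, on the rescaled TPM. In MC-F7 the order was MESP1 (3.89), FOXA2 (2.68), EOMES (1.95), GATA6 (0.322), MIXL1 (0.238), GSC (0.148), SOX17 (0.116) and GATA4 (0). MESP1 overlapped FOXA2, the ranges of FOXA2 and EOMES were separate, EOMES stood clear of GATA6, and from GATA6 down each gene overlapped the next. In MT-F7 the order was MESP1 (7.06), EOMES (1.19), GSC (0.319), FOXA2 (0.291), GATA6 (0.197), SOX17 (0.0666) and then GATA4 and MIXL1, both at 0. FOXA2 moved from the second place to the range of GSC and GATA6. The gene next to MESP1 was then EOMES, and the range of MESP1 was above that of EOMES in both groups.

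The closest relatives of the members were chosen after their values had been seen. MESP2 (Entrez gene 615145), which neighbours MESP1 in function and directs somite segmentation, rose from 0.416 ± 0.148 to 1.89 ± 0.269 CPM. Its log2 fold change was 2.18 (adjusted p = 0.0027). On the rescaled TPM, MESP2 was 0.12, 0.0787 and 0.208 times MESP1 in the MC-F7 libraries and 0.4, 0.333 and 0.273 times in the MT-F7 libraries. The groups did not overlap (exact permutation p = 0.1, two-sided, the smallest possible). MESP1 remained the more abundant of the pair in every library.

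FOXA3 (Entrez gene 503622), a later endoderm and liver factor, was the most abundant FOXA gene in both groups, with a rescaled TPM of 4.93 ± 1.20 in MC-F7 against 3.53 ± 0.239 in MT-F7. Its log2 fold change was -0.55 (adjusted p = 0.089). The ratio of FOXA2 to FOXA3 counts was 0.528, 0.587 and 0.823 in the MC-F7 libraries and 0.0714, 0.0687 and 0.148 in the MT-F7 libraries, again without overlap (exact permutation p = 0.1, two-sided). FOXA1 had MC-F7 counts of 6, 1 and 0 and MT-F7 counts of 0, 0 and 1.

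SOX18, a factor of blood vessel formation, was the SOXF gene with the highest level, with a rescaled TPM of 1.62 ± 0.558 in MC-F7 against 1.17 ± 0.337 in MT-F7, and its groups overlapped (log2 fold change -0.57, adjusted p = 0.31). SOX7 stayed at 7 counts or fewer in each library. GATA5, the endoderm and heart relative of GATA4 and GATA6, had MC-F7 counts of 2, 9 and 7 and MT-F7 counts of 0, 0 and 3. It did not pass the filter on low counts, and its adjusted p in the fit of all genes with a count was 0.18. The plot of the 4 gene families shows these levels side by side.

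**Figure D4:**
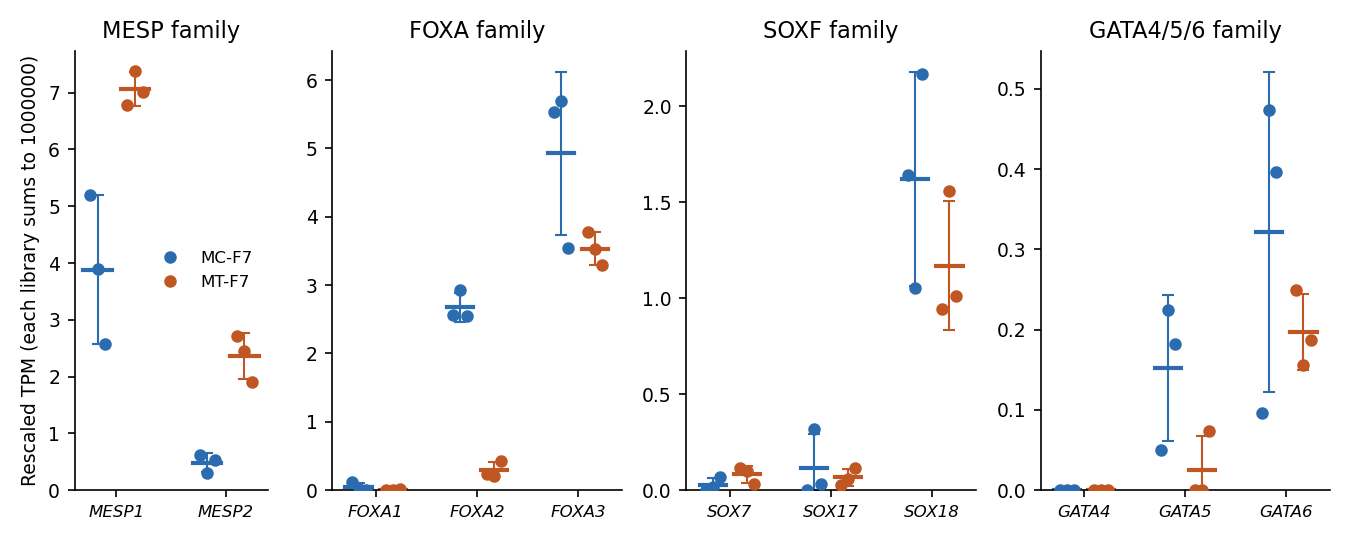
Rescaled TPM (each library sums to 1000000) of the MESP, FOXA, SOXF and GATA4, GATA5 and GATA6 genes, with 1 point per library. Lines are the group means and error bars the SD (n = 3), with a different vertical scale in each panel. EOMES, MIXL1 and GSC are not shown. FOXA2 falls to near 0 in MT-F7 while FOXA3 stays above 3, and the MT-F7 points lie above the MC-F7 points for MESP2 (adjusted p = 0.0027) and for MESP1, which did not pass the threshold (adjusted p = 0.063).

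Of 25 further genes of the streak and mesoderm, 24 were in the count table, 6 of them at 3 counts or fewer in every library, and 13 were tested. Of these, 4 were higher and 3 lower in the MT-F7 cells (53.8% called, against 23.2% of all tested genes), and the median log2 fold change was 0.68. The higher genes were TBX3 (log2 fold change 3.62, adjusted p = 0.0012), a T-box factor of limb and heart, APLNR (2.92, adjusted p = 1.7e-04), a receptor of migrating mesoderm, MESP2, and KDR (1.06, adjusted p = 0.0046), the receptor for VEGF on endothelial precursors. The lower genes were SNAI1 (-1.40, adjusted p = 5.5e-04), which represses E-cadherin during gastrulation, LHX1 (-1.36, adjusted p = 0.042), a partner of GSC and FOXA2 in the organizer, and TCF15 (-1.29, adjusted p = 0.0033), a factor of the paraxial mesoderm. TBXT, the defining T-box gene of the primitive streak, had MC-F7 counts of 0, 1 and 0 and none in MT-F7.

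The endoderm list of 25 further genes was also split. Of 15 tested genes, 4 were higher and 5 lower in the MT-F7 cells. That is 60% called, against 23.2% of all tested genes, and the median log2 fold change of the list was -0.47. TTR (3.76, adjusted p = 4.5e-04), DAB2 (2.23, adjusted p = 6.6e-05), RSPO3 (1.56, adjusted p = 0.0034) and APOA1 (1.11, adjusted p = 0.0010) were higher. TTR and APOA1 encode plasma carriers of thyroid hormone and lipid, DAB2 an adaptor for endocytosis, and RSPO3 a secreted enhancer of Wnt signals. CUBN (-1.46, adjusted p = 6.3e-04) and AMN (-1.40, adjusted p = 0.017), which together form an uptake receptor of the visceral endoderm, were lower. PROX1 (-1.39, adjusted p = 0.011) and CLDN6 (-0.61, adjusted p = 0.038), which encodes a tight junction protein, were lower as well. The fifth lower gene was KIT (-0.59). The endoderm genes AFP, CER1, PDX1 and ONECUT1 were at 0 counts in every library.

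Of 32 genes for signals that act on the streak, 24 were tested, and 6 were higher and 3 lower. These are 37.5% called, against 23.2% of all tested genes (11.9% higher and 11.3% lower). The median log2 fold change of the list was -0.013. NODAL itself, the ligand that induces EOMES, MIXL1 and GSC, had MC-F7 counts of 3, 4 and 3 and MT-F7 counts of 2, 3 and 0. Lower in the MT-F7 cells were 3 genes of the same pathway, namely the ligand GDF3 (22.7 ± 2.73 to 1.4 ± 0.398 CPM, log2 fold change -4.02, adjusted p = 6.4e-07), the inhibitor LEFTY2 (-4.84) and FOXH1 (-1.51, adjusted p = 0.0018), the DNA-binding partner of SMAD2 at Nodal targets. The co-receptor TDGF1, read from the TPM table, was at 11.4, 11.7 and 6.95 in MC-F7 but at 1.55, 1.59 and 1.86 in MT-F7 (limma on log2(rescaled TPM + 1), adjusted p = 0.0024). Among the tested genes of this pathway that were not called was the ligand GDF1 (log2 fold change 0.30). The receptors ACVR1B (0.064), ACVR2A (-0.099) and ACVR2B (-0.60) were not called either, nor were SMAD3 (-0.037) and SMAD4 (0.012). The higher genes included FGF8 (2.81), LEF1 (2.80), FST (19.1 ± 2.65 to 54.3 ± 5.98 CPM), which binds activin, and DKK1, a Wnt antagonist with 0 counts in every MC-F7 library. The other two were BMP4 (0.94) and SMAD2 (0.64), the latter a transducer of Nodal signals. WNT3 was at or under the floor in every library.

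**Figure D5:**
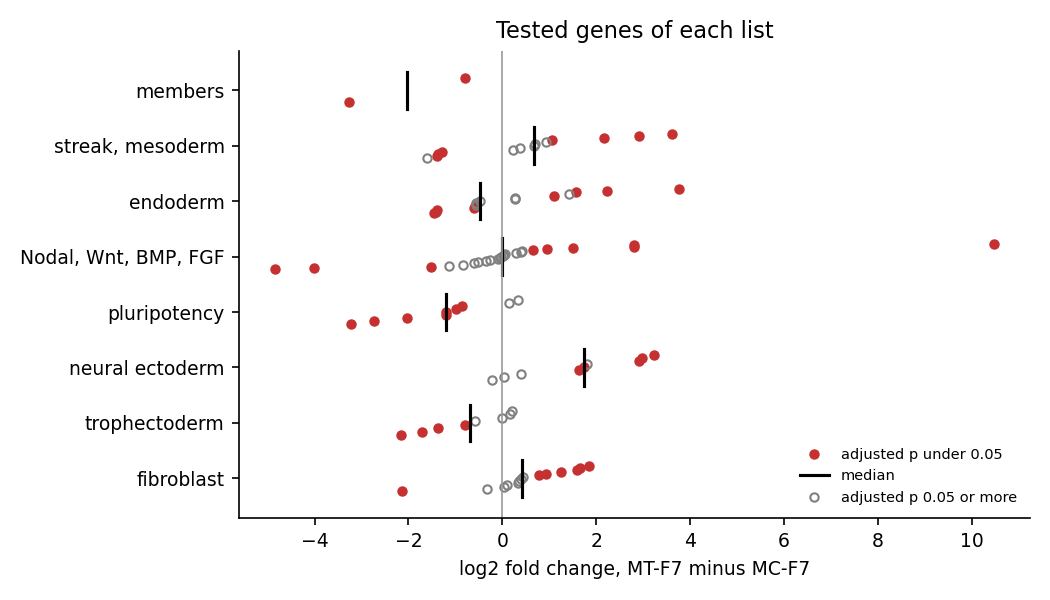
Log2 fold change (MT-F7 minus MC-F7) of the tested genes of each list, filled where the adjusted p was under 0.05, with a black line at the median of the list. Both tested members lie left of 0, the streak and endoderm lists have called genes on both sides, and the point farthest right is DKK1, whose fold depends on the fit because its MC-F7 counts were all 0.

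Markers of other cells moved between the groups as well, and their part in the results for the members was not tested. In bulk RNA, fewer cells of a type and less RNA per cell cannot be told apart. EOMES is also a trophoblast gene. Of the 8 tested trophectoderm genes, 4, EOMES among them, were lower in the MT-F7 cells and none was higher. These are 50% called, against 23.2% of all tested genes (11.9% higher and 11.3% lower). The summed level of that list was 1840 to 2846 CPM in MC-F7 and 690.5 to 802 CPM in MT-F7, most of it KRT8 (log2 fold change -1.37) and KRT18 (-2.15), and GATA2 (-1.70) was the other gene called. The tested genes of that list that were not called were TEAD4 (log2 fold change 0.21), TFAP2A (0.15), TFAP2C (-0.017) and SSLP1 (-0.58). The fall in the summed level was thus not shared by every tested gene of the list. The defining trophectoderm gene CDX2 was at 0 in all 6 libraries and ELF5 in 5 of them. Of 9 tested genes of the neural ectoderm, 5 were higher and none was lower (55.6% called). The largest log2 fold changes were in LHX2 (3.23), RAX (2.98), PAX6 (2.92) and SIX3 (1.73). Their summed level was 713 to 845 CPM in MC-F7 and 1502 to 1609 CPM in MT-F7. The 14 tested fibroblast genes had 6 higher and 1 lower (50% called), with a summed level of 480.0 to 591 CPM in MC-F7 and 1071 to 1232 CPM in MT-F7. The largest log2 fold changes among the higher ones were those of ACTA2 (1.86), COL3A1 (1.65), FBLN1 (1.60) and POSTN (1.24), and the lower one was TWIST2 (-2.15). The mouse feeder is alive in MC-F7 and fixed in MT-F7, and the reads were counted on bovine genes. The study reports that a larger share of reads aligned to the bovine genome in MT-F7 than in MC-F7, and proposes less feeder contamination in MT-F7. Whether mouse reads were counted on the members was not tested.

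The genes whose profile over the 6 libraries was most like that of a tested member were found by the root mean square distance between log2 CPM values, each gene centred on its own mean. For EOMES these were CACNG7 (distance 0.0386), EFHD2 (0.0397) and MRPL48 (0.0441), with log2 fold changes of -0.76, -0.76 and -0.73. For FOXA2 they were DCLK3 (0.193), LAMP5 (0.218) and SLC16A3 (0.236), with log2 fold changes of -3.37, -3.21 and -3.24. Genes with nearly equal profiles have nearly equal log2 fold changes by construction, so these fold changes are no separate result. None of these 6 genes was on the lists, and EOMES and FOXA2 were 1.23 apart.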

How the data were processed

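RNA-seq of F7 cells, 3 libraries from MC-F7 and 3 from MT-F7, was used. The authors used HISAT2 2.0.5 to align paired-end reads to a Bos taurus genome from Ensembl, counted them on genes with featureCounts 1.5.0-p3 and deposited raw counts per Entrez gene; the genome build is not given in the sources used here. The authors also deposited values that they call TPM. Among genes with 50 or more counts per library, 9678 of 9679 had 1 ratio of TPM to count throughout (tolerance 1e-04). The values thus keep library size, and each library was rescaled to 1000000. Symbols came from RefSeq (89 of 19163 genes had none), in which no other gene overlaps a member. Its coordinates were not used.

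With edgeR 4.0.16 (R 4.3.3), genes passing filterByExpr at a minimum count of 10 and a minimum total of 15 were normalized by TMM (factors 0.971 to 1.04) and compared with glmQLFTest, two-sided, without a block, with Benjamini-Hochberg adjustment over 13001 genes. MESP1 and TDGF1 were tested with limma 3.58.1 on log2(rescaled TPM + 1). The step of the TPM values returned the deposited counts for 98.3% of 4573 genes with 1 to 200 counts. The fits were run on simulated data in which every gene had the same spread (dispersion). The minimum set for recovered changes was not applied to limma. Alternatives were RLE factors, library size only, DESeq2 1.42.0, other filters, a replicate block, each library left out, limma on TPM with pseudocounts of 1 and 0.1, and removal of mitochondrial genes.

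The members and lists were chosen with earlier results of these data known. All members are named, and of each further list the called genes with the largest changes, at most 4 in each direction, were named. KIT, BMP4, SMAD2, the relatives of the members and the genes given at or near 0 counts were added after their values had been seen. So were the uncalled genes named from the signal and trophectoderm lists. Likeness used a prior count of 2. SOX2 and a few other genes of the lists were not analysed here.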

Additional observations from a re-analysis of the deposited data

How the results depend on the processing

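EOMES and FOXA2 were lower in the MT-F7 cells under every alternative that could test them, and FOXA2 passed the threshold in each of its 15 alternatives. EOMES passed in 11 of 16. The count of members called was 1 with at least 10 counts in every library, where FOXA2 was not tested, 1 with limma on log2(TPM + 0.1) and on log2(rescaled TPM + 1), 0 where a mean TPM of 1 or more was required, since neither was then tested, and 1 to 2 when each library was left out. Over all genes the count was 1399 with that TPM filter, which tests fewer genes, and 1914 to 3093 when each library was left out, the lowest without MC-F7 replicate 2. With limma 1547 genes were higher and 820 lower on log2(TPM + 1), and 1421 and 960 on log2(rescaled TPM + 1), against 1553 and 1463 in the count fit, and the cause was not tested. The further lists had 47 called genes, and 26 with the TPM filter. A replicate block raised the count to 4674 genes, and the members called were unchanged. The deviations of same-numbered libraries had correlations of 0.134, 0.0445 and 0.417, and not every library correlated best with its own number. Replicate 3 of each group did correlate best with its own number. Whether same-numbered libraries were handled together is not given in the sources used here, and so few correlations cannot decide it. MESP1 as whole multiples passed with the block (adjusted p = 0.026). At 3 counts in 1 library, changes of GATA4, MIXL1, SOX17 and GSC were not detectable unless large.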
